A study of Mus musculus with 13 samples.

Results

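The comparison described here sets cortical neurons treated with rotenone for 15 h against neurons given vehicle. It rests on 7 of the 13 samples of the series, 3 arrays labelled 15 h and 4 labelled control, chosen by their titles. All 11061 genes with a detected probe were tested. The cells were primary neurons from the neocortex of foetal Swiss albino mice at gestation day 15 or 16, on day 5 of culture. The treated cultures received 10 nM rotenone from a DMSO stock in NeuroBasal medium, and the controls received vehicle. The remaining 6 samples, treated for 8 h or 24 h (3 each), entered the same fit and are used to place the 15 h values in time. The titles mark the controls as shared with a second compound, and when they were harvested is unstated in the labels, so age in culture and rotenone cannot be told apart. No label says that replicates came from separate cultures or litters, so the p-values measure the spread between these RNA samples, which may be technical.

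Rotenone is a plant compound that blocks complex I of the mitochondrial respiratory chain, the entry point for electrons from NADH. With complex I blocked, the chain pumps fewer protons for ATP synthase and electrons leak to oxygen, and midbrain dopamine neurons are known for their sensitivity to it. Cells answer oxidants through NRF2, a transcription factor that binds antioxidant response elements, and answer mitochondrial faults and missing amino acids through the integrated stress response, in which ATF4 and CHOP bind composite C/EBP-ATF elements.

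Levels are log2 bead signals after background correction and quantile scaling between arrays. Each probe has its own scale, so levels are compared between arrays and not between genes. A gene is called where the adjusted p of limma's moderated test (Benjamini-Hochberg over all genes) is under 0.05, and ± marks the standard error of the fitted log2 change. Both rest on a spread pooled over all 4 groups, which were not equally tight. An array's mean correlation with its group was 0.975 to 0.987 at 15 h and 0.995 to 0.996 at 24 h. The ± and p can therefore understate the spread at 15 h, above all where 15 h replicate 1 stands apart. At 15 h 5543 of 11061 genes were called (50.1%), 2814 of them higher (25.4%) and 2729 lower (24.7%). At least 1.5-fold changes were seen for 2527 called genes (22.8%). All 3 treated arrays lay above all 4 controls for 2809 genes (25.4%) and below them for 2730 (24.7%).

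The balance of these calls depends on the scaling. The mean probe signal was 255, 287 and 269 on the 15 h arrays and 325 to 405 on the controls, which did not overlap (exact two-sided permutation p = 0.0571, the smallest that 3 against 4 allows). Quantile scaling removes that difference. The median gene changed by 0.02 under it, by −0.16 under median scaling and by −0.25 with no scaling. Calls were 1410 higher (12.7%) and 4563 lower (41.3%) under median scaling, 826 (7.47%) and 5170 (46.7%) with none, and 1402 (12.7%) and 4520 (40.9%) in the authors' normalized values. Called in one direction under all 4, and also without background correction and with limma's neqc processing, were 821 genes that were higher and 2682 that were lower.

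Replicate 1 at 15 h stood apart. Its mean correlation with its group was 0.975, against 0.987 and 0.986 for replicates 2 and 3, and it had the lowest share of detected probes of the 13 arrays, 50.4%. It lay farthest from the controls in 62.3% of called genes, at a median log2 distance of 0.64 against 0.50 and 0.50. Without it 5343 genes were called, 2643 higher (23.9%) and 2700 lower (24.4%), and 4766 of the 5543 calls (86.0%) held in the same direction. Identical signals place it alone among the 15 h arrays on its chip, while the array labels put it with replicate 2.

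**Figure D1:**
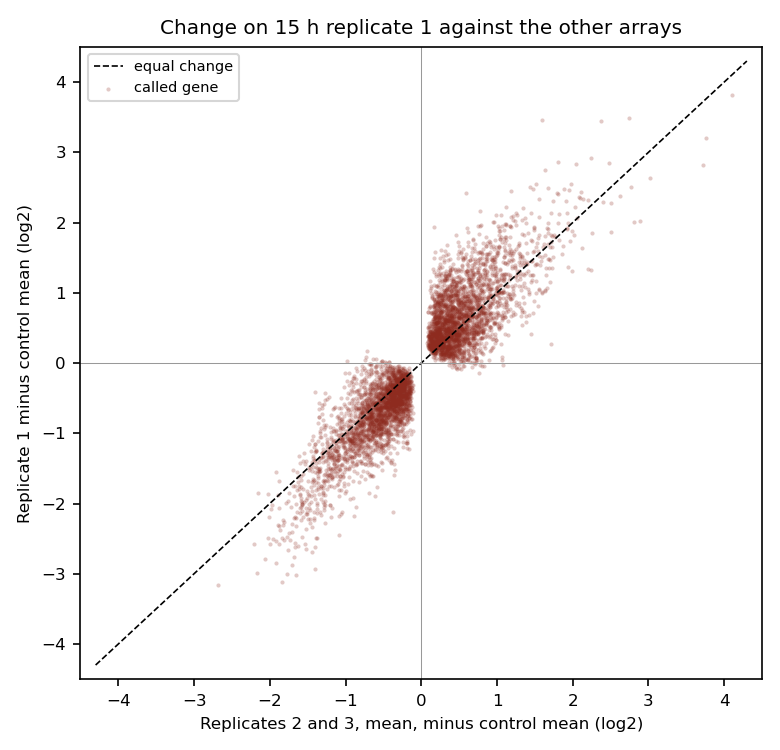
Log2 change of each of the 5543 called genes on 15 h replicate 1 (vertical axis) against the mean change on replicates 2 and 3 (horizontal axis), each relative to the mean of the 4 controls; the dashed line marks equal change. Points spread to the steeper side of the line, since replicate 1 was the farthest from the controls in 62.3% of these genes.

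The promoters of 6 of the genes that changed are shown because they hold the element their pathway is known for. The sequences are RefSeq promoters (build GRCm38.p6) from 250 bases before to 50 after the gene's start, read along the gene's strand. They are Srxn1 at chr2:152105274-152105573 on the plus strand, Gclm at chr3:122245307-122245606 on the plus strand, Me1 at chr9:86695865-86696164 on the minus strand, Nupr1 at chr7:126625421-126625720 on the minus strand, Trib3 at chr2:152344011-152344310 on the minus strand and Atf3 at chr1:191183284-191183583 on the minus strand. Capitals mark the match on either strand, to TGACNNNGC (antioxidant response element) in the 3 NRF2 targets and to TGATGNAA (C/EBP-ATF element) in the 3 stress response genes.
Srxn1: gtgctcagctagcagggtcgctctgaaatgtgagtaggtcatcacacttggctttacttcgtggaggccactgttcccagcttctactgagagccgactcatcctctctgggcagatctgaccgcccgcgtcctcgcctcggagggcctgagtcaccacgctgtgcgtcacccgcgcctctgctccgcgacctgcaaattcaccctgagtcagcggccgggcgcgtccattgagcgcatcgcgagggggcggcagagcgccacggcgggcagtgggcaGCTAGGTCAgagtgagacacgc
Gclm: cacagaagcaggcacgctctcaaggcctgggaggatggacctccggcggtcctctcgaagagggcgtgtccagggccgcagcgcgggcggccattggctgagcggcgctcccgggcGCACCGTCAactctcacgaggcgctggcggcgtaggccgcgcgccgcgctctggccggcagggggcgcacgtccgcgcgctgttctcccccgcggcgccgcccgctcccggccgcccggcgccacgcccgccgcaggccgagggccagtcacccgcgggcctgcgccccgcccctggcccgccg
Me1: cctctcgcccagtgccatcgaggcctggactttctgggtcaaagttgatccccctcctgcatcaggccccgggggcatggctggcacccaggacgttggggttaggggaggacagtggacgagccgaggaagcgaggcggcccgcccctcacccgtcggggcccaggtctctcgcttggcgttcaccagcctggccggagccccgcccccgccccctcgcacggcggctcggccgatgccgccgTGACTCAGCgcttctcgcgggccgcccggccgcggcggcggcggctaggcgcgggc
Nupr1: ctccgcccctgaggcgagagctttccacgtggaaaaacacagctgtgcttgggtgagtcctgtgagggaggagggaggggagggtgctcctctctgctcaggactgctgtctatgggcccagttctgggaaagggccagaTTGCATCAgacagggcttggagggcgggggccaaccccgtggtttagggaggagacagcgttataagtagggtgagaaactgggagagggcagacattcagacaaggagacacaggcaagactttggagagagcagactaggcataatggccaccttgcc
Trib3: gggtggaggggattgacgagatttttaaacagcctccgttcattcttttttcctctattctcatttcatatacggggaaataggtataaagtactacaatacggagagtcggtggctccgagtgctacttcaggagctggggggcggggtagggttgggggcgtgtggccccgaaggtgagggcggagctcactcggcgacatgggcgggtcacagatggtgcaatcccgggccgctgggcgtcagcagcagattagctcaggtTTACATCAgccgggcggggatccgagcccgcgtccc
Atf3: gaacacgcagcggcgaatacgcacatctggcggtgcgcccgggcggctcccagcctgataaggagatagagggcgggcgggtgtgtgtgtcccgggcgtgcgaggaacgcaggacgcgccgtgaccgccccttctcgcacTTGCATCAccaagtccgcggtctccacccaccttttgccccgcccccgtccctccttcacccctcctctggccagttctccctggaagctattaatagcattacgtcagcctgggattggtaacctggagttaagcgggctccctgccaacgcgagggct
The match begins 134 bases before the start in Gclm, 6 before it in Me1 and 28 after it in Srxn1, and 110 bases before it in both Nupr1 and Atf3. Me1 has 2 listed starts, of which 1 is shown. Of the NRF2 targets listed here, 24 had a promoter and 9 of these held TGACNNNGC (37.5%), against 16.5% of the promoters of 8682 tested genes. TGATGNAA stood in 7 of 21 promoters of the integrated stress response list (33.3%), against 3.02% of all. These are matches of letters, and binding was not measured. Genes known for a pathway can hold its element whether or not they changed, so these shares do not show that a factor acted here.

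Genes of antioxidant defence were higher. Of 29 measured NRF2 targets 23 were called higher and 1 lower (0 without 15 h replicate 1), beside 25.4% and 24.7% of all genes, with a median log2 change of 0.87 against 0.02 for all genes. The counts were 20 and 4 under median scaling, beside 12.7% and 41.3% of all genes. The counts of every list below are to be read beside these shares of all genes. Hmox1, heme oxygenase, which breaks heme into iron, carbon monoxide and biliverdin, had levels of 8.21, 8.23, 9.45 and 8.87 in controls 1 to 4 and 12.51, 12.77 and 12.82 on 15 h replicates 1 to 3. The groups lay far apart, although controls 3 and 4 were above controls 1 and 2, and the change was 16.1-fold (4.01 ± 0.26, adjusted p = 1.37e-08). Srxn1, sulfiredoxin, which repairs oxidised peroxiredoxins, gave 8.39, 8.40, 9.64 and 9.15 in controls and 11.53, 11.90 and 11.92 at 15 h. Its controls were ordered like those of Hmox1 and its groups did not overlap (2.89 ± 0.25, adjusted p = 1.47e-07, with further probes at 2.88 and 2.82).

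Slc7a11, the cystine importer, lay between 6.21 and 6.32 in the controls and at 9.16, 8.46 and 8.51 at 15 h, with no overlap and replicate 1 highest (2.46 ± 0.14, adjusted p = 4.76e-09). Its control level was near background, detected on 3 of the 4 arrays with deposited signals of 52.7 to 65.2 beside thresholds of 54.7 to 62.3. Gclm, the modifier subunit of the enzyme that makes the first bond of glutathione, rose from 7.89, 8.11, 8.23 and 8.06 to 10.54, 9.93 and 10.12 (2.13 ± 0.13, adjusted p = 8.70e-09). Gsr, which reduces oxidised glutathione (1.36), and Me1, a cytosolic source of NADPH (1.35), also rose, as did the transferase Gsta4 (1.96) and the oxidant-induced growth inhibitor Osgin1 (1.69). Osgin1 was detected on 3 of the 4 control arrays. Smaller rises were found for the thioredoxin reductase Txnrd1 (0.89), the peroxiredoxin Prdx1 (0.87), the quinone reductase Nqo1 (0.67) and the ferritin chains Fth1 (0.73) and Ftl1 (0.39). G6pdx, the entry enzyme of the pentose phosphate pathway, was the 1 member called lower (−0.40, adjusted p = 0.0177). Its arrays overlapped (6.86, 7.16 and 7.46 against 7.40 to 7.66), and it was not called without 15 h replicate 1 (−0.25). Gclc, the catalytic partner of Gclm, was detected on no control array and on 2 of the 15 h arrays, and was not called (adjusted p = 0.0552). It was called without 15 h replicate 3 (0.28), under median scaling (0.23), in the authors' normalized values (0.31), with only the groups compared (adjusted p = 0.0335), within the labels' chip 1 (0.33) and with array weights (0.30).

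**Figure D2:**
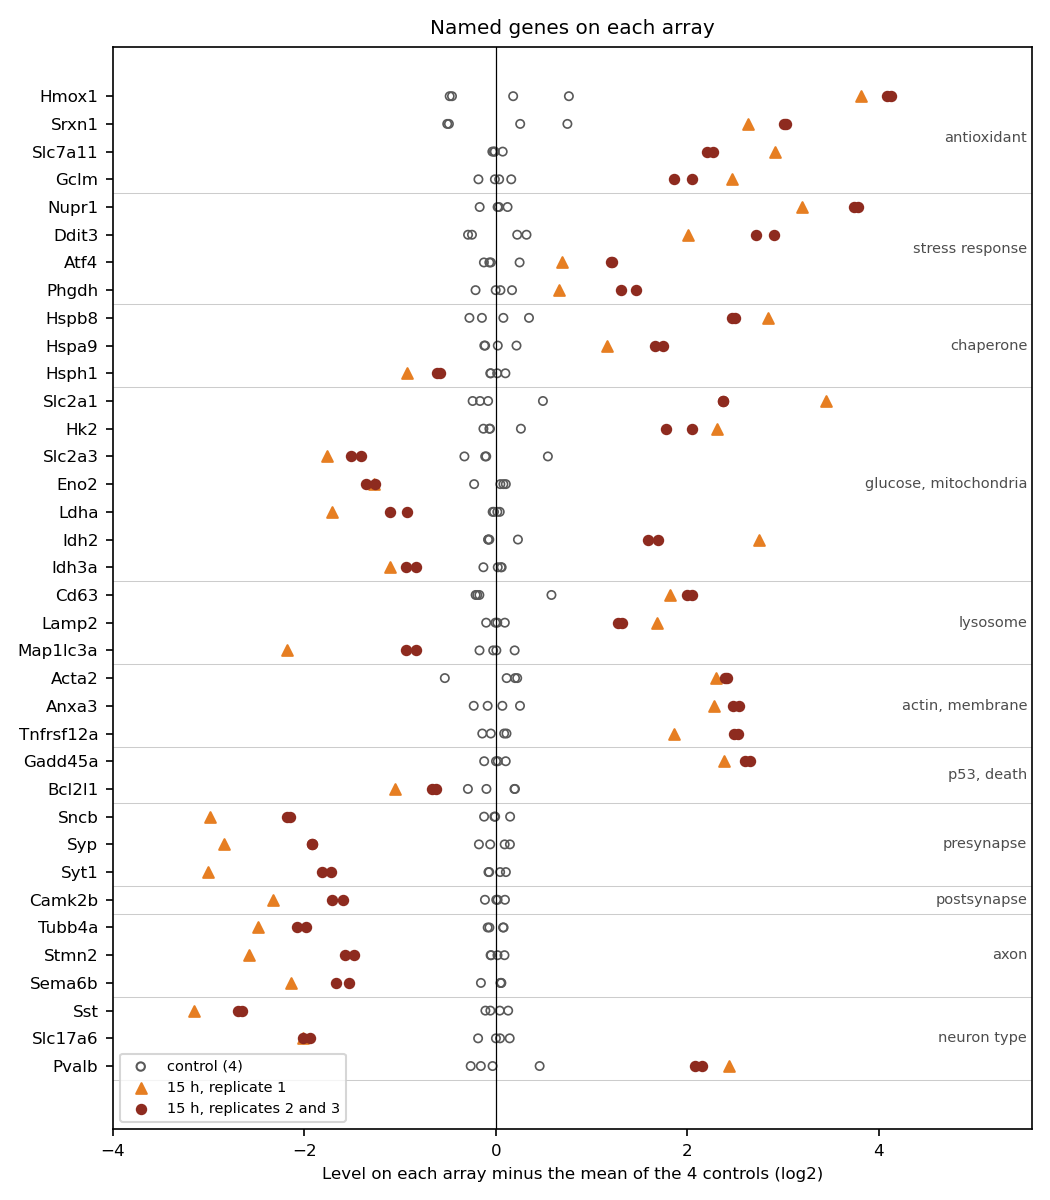
Level of named genes on each array minus the mean of the 4 controls (horizontal axis, log2), grouped by role, with open circles for controls, triangles for 15 h replicate 1 and filled circles for replicates 2 and 3. The 3 treated arrays lie on one side of all 4 controls for each gene, and replicate 1 lies farthest out for the presynaptic genes.

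Regulators of the integrated stress response rose as a group. Of 26 measured genes 21 were called higher and 0 lower, with a median of 1.18, and 19 and 2 were called under median scaling. Nupr1, a small stress-induced chromatin protein, lay at 6.22, 6.42, 6.41 and 6.51 in the controls and at 9.59, 10.13 and 10.18 at 15 h. No control came near the treated arrays, and the change was 11.9-fold (3.58 ± 0.14, adjusted p = 1.43e-10). Ddit3, which encodes CHOP, read 7.66, 7.70, 8.27 and 8.17 in controls and 9.96, 10.67 and 10.86 at 15 h (2.55 ± 0.22, adjusted p = 1.66e-07). Its treated arrays were all above the controls, and replicate 1 was the lowest of them. Atf4 itself, whose product is mainly set by translation, rose by less, from 10.06, 10.01, 10.38 and 10.08 to 10.82, 11.34 and 11.35 (1.04 ± 0.16, adjusted p = 5.61e-05), and its other probe was at 1.41. Its change was 0.52 under median scaling, 0.55 in the authors' normalized values and 0.43 with no scaling, where it was not called (adjusted p = 0.0629).

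Gdf15, a secreted stress cytokine, was detected on no control array (5.84 to 6.06) and reached 8.83, 9.62 and 9.83 at 15 h, at least 9.16-fold higher (adjusted p = 2.23e-09). A fold against undetected controls is a bound, set by the lowest detected signal on each control array. Trib3, a pseudokinase that restrains AKT and ATF4, was likewise undetected in the controls and was at least 3.29-fold higher (adjusted p = 1.91e-07). Atf3, a repressor induced by ATF4, was detected on 1 of the 4 control arrays (5.99 to 6.25), read 7.61, 7.86 and 7.83 at 15 h and rose (1.66), against a baseline mostly not above background. Chac1, which degrades glutathione (1.20), the angiogenic factor Vegfa (1.56) and Slc3a2, the partner chain of Slc7a11 (1.33), rose as well. Eif4ebp1, a brake on cap-dependent translation, rose by 2.68 on its brightest probe while its other probe was at −0.03.

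Enzymes that make serine, glycine, asparagine and folate units, many of them ATF4 targets, rose in part. Of 17 measured genes 10 were called higher and 0 lower (median 0.48), but only 4 and 1 under median scaling. Phgdh, which opens serine synthesis, had levels of 7.53, 7.27, 7.48 and 7.65 in the controls and 8.14, 8.94 and 8.79 at 15 h. The groups did not overlap, and replicate 1 was the nearest to the controls (1.14 ± 0.16, adjusted p = 2.81e-05). The mitochondrial folate enzyme Mthfd2 (1.13), the aminotransferases Psat1 (1.04) and Gpt2 (1.02) and the asparagine synthetase Asns (0.64) rose. Asns stood at 0.12 under median scaling, where it was not called, and its other probe was at 0.32. Of 15 cytosolic aminoacyl-tRNA synthetases, which charge tRNAs, 5 were called higher and 1 lower (3 without 15 h replicate 2), and under median scaling 0 and 5. TGATGNAA stood in 5 of the 10 of these genes with a promoter (50%), against 3.02% of all. Of the 4 called higher that had a promoter, 2 held it.

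Markers of folding stress in the endoplasmic reticulum did not move one way. Of 19 measured genes 4 were called higher (2 without 15 h replicate 3) and 4 lower (median 0.10). These are 21.1% each, near the 25.4% and 24.7% of all genes. Under median scaling 2 and 7 were called, beside 12.7% and 41.3% of all genes. Hspa5, the chaperone BiP, read 6.62, 6.56, 6.44 and 6.64 in controls and 6.62, 6.53 and 6.60 at 15 h. The arrays interleaved (0.02 ± 0.10, adjusted p = 0.897). The Hspa5 probe was detected on all of them but was dim, with deposited signals of 71.5 to 94.0 beside detection thresholds of 52.4 to 62.3. A level this near background limits what the probe can show. Xbp1, a transcription factor of that response, fell by 0.75 ± 0.14 (adjusted p = 3.92e-04).

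Of 18 heat shock proteins and cochaperones 8 were called higher and 5 lower, and 5 and 8 under median scaling. The mitochondrial chaperones Hspa9, Hspd1 and Hspe1 are 3 of the 8, which leaves 5 higher and 5 lower among the other 15. The letters GAANNTTC of the heat shock element stood in 7 of 12 promoters of the whole list (58.3%), 2 of them of mitochondrial chaperones, against 7.39% of all. Hspb8, a small heat shock protein that works with Bag3 in the removal of misfolded proteins, lay at 7.41, 7.28, 7.63 and 7.90 in controls and 10.40, 10.06 and 10.02 at 15 h (2.60 ± 0.15, adjusted p = 4.76e-09). The groups were well apart. Bag3 (1.22) and the small heat shock protein Cryab (1.00) rose too. Hsph1, an exchange factor of HSP70, fell from between 11.07 and 11.23 to 10.21, 10.54 and 10.51 (−0.71 ± 0.10, adjusted p = 2.76e-05), and Stip1, which links HSP70 to HSP90, fell by 0.77 (0.51 without 15 h replicate 1). Hspa9 rose from 9.85, 9.85, 10.18 and 9.99 to 11.13, 11.71 and 11.63 (1.52 ± 0.13, adjusted p = 1.33e-07). Of the 13 mitochondrial chaperones and proteases, which include Hspa9, Hspd1 and Hspe1, 10 were called higher and 1 lower, but 1 and 3 under median scaling, and 6 were higher without 15 h replicates 2 or 3 or control 2.

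**Figure D3:**
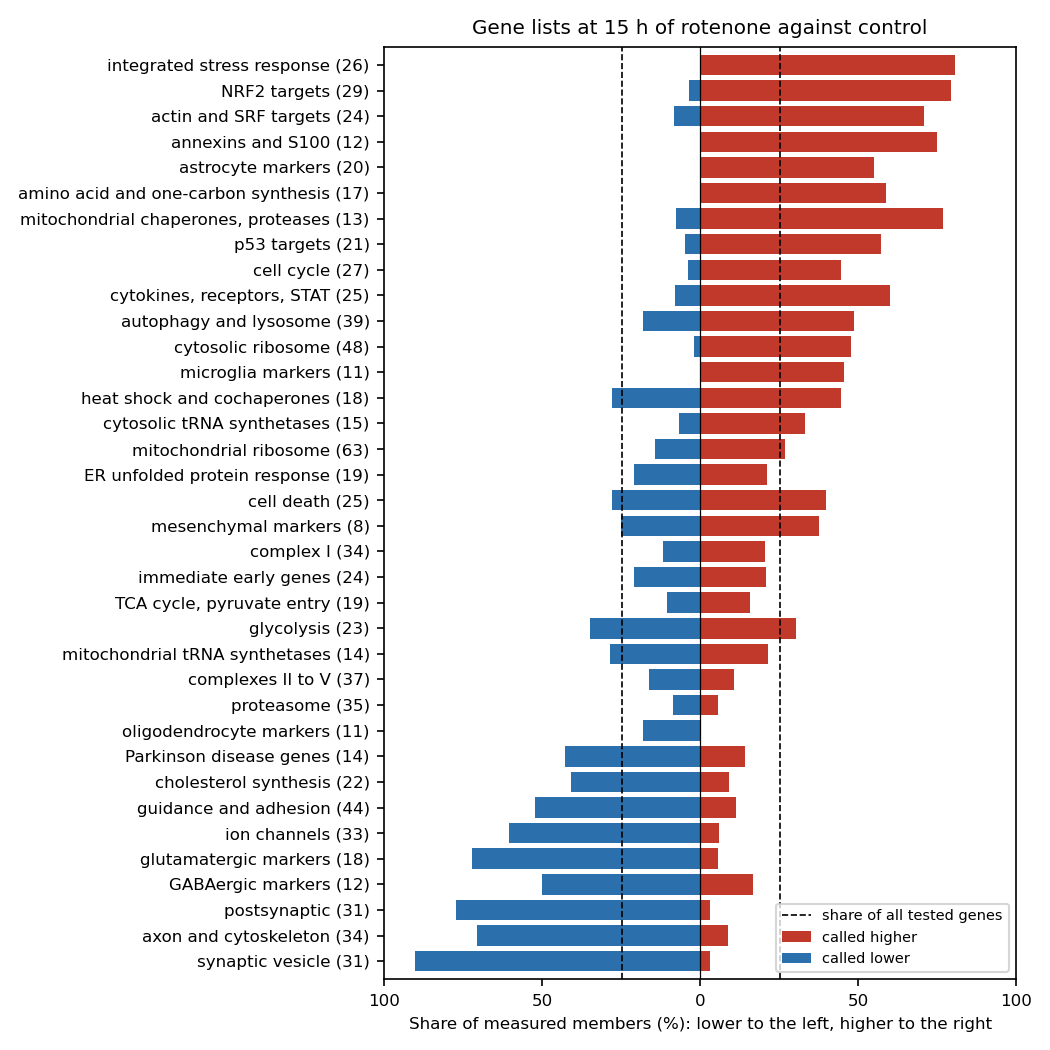
Share of the measured members of each list called higher (right, red) and lower (left, blue) at 15 h against control, in percent; the number of members is in brackets, lists are ordered by median log2 change, and dashed lines mark the shares of all tested genes. The integrated stress response and NRF2 lists stand at the top and synaptic, axonal and postsynaptic lists at the bottom. The metallothionein, endothelial and blood lists, with 5 or fewer measured members, are not drawn.

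Of 23 measured genes of glucose use 7 were called higher and 8 lower (median −0.02), and 3 and 13 under median scaling. GACGTG, the core of the hypoxia response element, stood in 8 of 22 of their promoters (36.4%), against 10.7% of all. Slc2a1, the widespread glucose transporter GLUT1, rose from 7.74, 7.82, 8.39 and 7.66 to 11.36, 10.27 and 10.28 (2.73 ± 0.24, adjusted p = 2.16e-07). Slc2a3, the neuronal transporter GLUT3, fell from 10.59, 10.61, 11.25 and 10.38 to 8.94, 9.30 and 9.20 (−1.56 ± 0.17, adjusted p = 1.65e-06). Neither pair of groups overlapped, and replicate 1 lay farthest from the controls for each gene. Hk2, the inducible hexokinase (2.05 ± 0.14), and Pfkfb3, which makes the activator of phosphofructokinase (1.02 ± 0.09), rose. Eno2, the neuronal enolase, lay between 10.91 and 11.24 in controls and at 9.86, 9.88 and 9.78 at 15 h (−1.30 ± 0.10, adjusted p = 3.62e-08). Ldha, the lactate dehydrogenase of glycolytic tissue, fell from between 11.60 and 11.67 to 9.92, 10.52 and 10.70 (−1.25 ± 0.13, adjusted p = 1.53e-06). Gapdh, often used as a reference gene, read 12.37, 13.29 and 13.35 at 15 h and 13.45 to 13.62 in controls, and was called lower (−0.50, adjusted p = 0.018). Every treated array lay below every control, and replicate 1 was the lowest. Without that array the change was −0.18 and still called (adjusted p = 0.0175). It was −0.71 under median scaling and −0.80 with none, and the call was lost with only the groups compared (adjusted p = 0.0617) and within 3 of the 4 single chips.

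Of 34 complex I genes, which encode subunits of the rotenone target, 7 were called higher and 4 lower (median 0.04), and of 37 genes of complexes II to V 4 and 6 (median −0.08), with 2 lower without control 1. Both lists depended on scaling, with 0 higher and 19 lower, and 0 and 27, under median scaling. The shares of all genes called higher and lower were 25.4% and 24.7%, and 12.7% and 41.3% under median scaling. In the citric acid cycle, 3 of 19 genes were called higher (6 without 15 h replicate 1) and 2 lower. Under median scaling these counts were 2 and 10. Idh2, the mitochondrial NADP-dependent enzyme that supplies NADPH, read 9.07, 8.76, 8.77 and 8.76 in controls and 11.59, 10.53 and 10.43 at 15 h (2.01 ± 0.21, adjusted p = 1.24e-06). Idh3a, the catalytic subunit of the NAD-dependent enzyme of the cycle, read 9.76, 9.73, 9.58 and 9.77 and then 8.61, 8.77 and 8.87 (−0.96 ± 0.10, adjusted p = 1.17e-06). The groups did not overlap for either gene. Dlat, a core enzyme of the pyruvate dehydrogenase complex, fell by 0.88.

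Cholesterol synthesis was lower in part, with 2 of 22 genes called higher (1 without 15 h replicate 2) and 9 lower, at a median of −0.22. Under median scaling the counts were 1 and 15. The enzymes Sqle (−0.75) and Fdps (−0.74) fell, and Fdps stood at −0.43 without 15 h replicate 1. Insig1, which holds the sterol sensor in the endoplasmic reticulum, was higher, from between 7.11 and 7.38 in controls to 7.97, 8.36 and 8.37 (0.94 ± 0.14, adjusted p = 3.41e-05).

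Of 39 genes of autophagy and lysosomes 19 were called higher and 7 lower (median 0.22), and 10 and 16 under median scaling. Cd63, a tetraspanin of late endosomes, lay at 10.89, 10.93, 10.91 and 11.69 in controls and 12.93, 13.15 and 13.10 at 15 h (1.95 ± 0.16, adjusted p = 8.66e-08). Control 4 was the highest control and still below every treated array. Lamp2 (1.43), Scarb2, the receptor that carries glucocerebrosidase to lysosomes (1.55), the cholesterol carrier Npc2 (1.31), the sialidase Neu1 (1.11) and the cathepsins Ctsz (1.01) and Ctsb (0.86, and 0.45 on its other probe) rose. Map1lc3a, an ATG8 family protein that coats autophagosomes, fell from 11.22, 11.40, 11.37 and 11.59 to 9.21, 10.46 and 10.56 (−1.32 ± 0.22, adjusted p = 1.38e-04), with replicate 1 well below the others and another probe at −0.59. Without that array the change was −0.89. Gabarapl2, of the same family, fell by 0.96 on the probe used, and its other probe was at −0.08.

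Actin-associated genes and targets of the serum response factor rose. Of 24 measured genes 17 were called higher and 2 lower (median 0.66), and 13 and 4 under median scaling. The CArG box, the element of that factor, stood in 8 of 21 of their promoters (38.1%), against 1.67% of all. It stood in 1 of 18 promoters of immediate early genes (5.56%). Acta2, smooth muscle actin, had levels of 9.97, 9.95, 9.21 and 9.86 in controls and 12.05, 12.17 and 12.14 at 15 h (2.37 ± 0.22, adjusted p = 3.09e-07). The treated arrays lay close together and far above the controls, of which control 3 was the lowest. The contractile and adhesion genes Myl9 (1.56), Cnn2 (1.55), Myh9 (1.39) and Vcl (1.20) rose with it. Annexins and S100 proteins, which bind membranes and calcium, were called higher in 9 of 12 cases and lower in 0 (median 0.59). Anxa3 read 7.96, 8.12, 7.82 and 8.30 in controls and 10.32, 10.59 and 10.52 at 15 h (2.43 ± 0.14, adjusted p = 5.38e-09). Anxa2 (1.54), S100a6 (1.32) and Anxa5 (1.29) rose as well.

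Of 25 cytokines, receptors and their signalling genes, 15 were called higher and 2 lower (1 without control 4 or any 15 h array), at a median of 0.25. Tnfrsf12a, the receptor of the cytokine TWEAK, rose from 7.25, 7.16, 7.41 and 7.39 to 9.16, 9.79 and 9.83 (2.29 ± 0.24, adjusted p = 1.40e-06). Stat3, the transcription factor of interleukin-6 type cytokines (1.81), the adhesion molecule Vcam1 (1.41) and Csf1, a growth factor of microglia (1.36), rose. Cx3cl1, the chemokine by which neurons signal to microglia, fell from between 9.23 and 9.52 to 7.37, 7.98 and 7.83 (−1.58 ± 0.13, adjusted p = 1.19e-07). No treated array reached the controls.

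Targets of p53 were called higher in 12 of 21 cases and lower in 1 (2 without 15 h replicate 3), at a median of 0.37, and in 9 and 4 under median scaling. Gadd45a, a stress sensor that slows the cell cycle, lay at 6.95, 7.07, 7.17 and 7.09 in controls and 9.45, 9.67 and 9.72 at 15 h (2.54 ± 0.11, adjusted p = 3.27e-10). The groups were far apart. Ccng1 (2.00, with other probes at 0.11 and 1.88), Trp53inp1 (1.06), Mdm2, the ligase that destroys p53 (0.99), and the cell cycle inhibitor Cdkn1a (0.69, and 0.18 on its other probe) rose. Cdkn1a was not called under median scaling (0.19), with no scaling (0.10) or in the authors' normalized values (0.22). Plk2, a kinase of synaptic scaling, was the 1 member called lower (−0.97). Bbc3, the death activator PUMA, was not called (0.17, adjusted p = 0.0834), and was called without 15 h replicate 1 (0.25) or control 1 (0.22), with array weights (0.18) and within matched chip 1 (0.29), the chip that identical signals give. Within matched chip 2 it stood at −0.01.

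The core machinery of cell death showed no common direction. Of 25 genes 10 were called higher and 7 lower (median 0.07), and 2 and 11 under median scaling. Bcl2l1, the survival factor BCL-XL, fell from 8.06, 8.06, 7.57 and 7.77 to 6.81, 7.24 and 7.20 (−0.78 ± 0.15, adjusted p = 3.60e-04), and Bok, a BCL2 family member, by 0.71. Among 24 immediate early genes 5 were called higher and 5 lower (20.8% each), near the 25.4% and 24.7% of all genes. Ier3 rose by 1.55. Fosl2 was lower on its brightest probe (−1.37) with control 3 far above the other controls, and its other probe was at 0.11. Fos was not called (1.00 ± 0.62, adjusted p = 0.19). Control 3 at 9.54 lay above every treated array, and it was called without that control (1.56), with array weights (1.18) and within matched chip 2 (1.58), where 15 h replicate 1 is the only 15 h array.

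Presynaptic genes had the highest share of lower calls among the 39 lists described. Of 31 measured genes of synaptic vesicles and their release 28 were called lower and 1 higher, 26 of the lower ones by at least 1.5-fold, with a median of −1.52. The counts were 28 and 1 under median scaling too. In bulk RNA, fewer neurons and less RNA per neuron cannot be told apart. Sncb, beta-synuclein, lay at 9.95, 10.11, 9.94 and 9.84 in controls and 6.97, 7.78 and 7.80 at 15 h, a 5.43-fold difference (−2.44 ± 0.17, adjusted p = 2.05e-08). Syp, synaptophysin, a membrane protein of synaptic vesicles, fell from 11.68, 11.74, 11.53 and 11.41 to 8.75, 9.67 and 9.67 (−2.23 ± 0.17, adjusted p = 6.80e-08). Syt1, the calcium sensor of fast release, fell from between 10.34 and 10.52 to 7.41, 8.70 and 8.60 (−2.18 ± 0.23, adjusted p = 1.39e-06). For all 3 genes no array crossed into the other group and replicate 1 was the lowest. Syngr3 (−2.31), Syt5 (−2.07), Syn1 (−2.04) and the fusion protein Stx1a (−1.61) fell as well. The 1 member called higher was Snap25, whose probe was detected on no control array, so it has no usable level there and its rise of at least 1.06-fold describes a dim probe.

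On the postsynaptic side 24 of 31 genes were called lower and 1 higher (median −0.65). Camk2b, a subunit of the calcium-dependent kinase of the postsynaptic density, fell from between 12.18 and 12.39 to 9.97, 10.59 and 10.71 (−1.88 ± 0.13, adjusted p = 2.12e-08). Its groups were fully separate. Nlgn2, an adhesion protein of inhibitory synapses (−1.48), and the glutamate receptor Grm5 (−1.24) fell. Gria3, an AMPA receptor subunit, was the 1 member called higher, from between 6.74 and 6.88 to 8.13, 7.63 and 7.64 (1.00 ± 0.12), but its other probes were at −0.00 and −0.19. Of 33 ion channel genes 20 were called lower and 2 higher (1 without 15 h replicate 1, control 1 or control 4), or 24 and 0 under median scaling. Their median was −0.27, and they were led by the sodium channel subunit Scn3b (−1.54, with other probes from −1.18 to −0.43), the pacemaker channel Hcn2 (−1.12) and the potassium channel Kcnd2 (−1.03).

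Genes of the axon and its cytoskeleton fell with 24 of 34 called lower and 3 higher (5 without control 3), at a median of −0.97, or 27 and 1 under median scaling. Tubb4a, a tubulin of the nervous system, lay at 9.61, 9.61, 9.45 and 9.46 in controls and 7.04, 7.55 and 7.46 at 15 h (−2.18 ± 0.12, adjusted p = 2.23e-09). Stmn2, which regulates microtubules in growing axons, fell from between 12.87 and 13.01 to 10.34, 11.34 and 11.44 (−1.88 ± 0.19, adjusted p = 6.24e-07). Both were lower on every treated array, by the widest margin on replicate 1. The growth cone protein Gap43 (−1.53) and doublecortin, Dcx (−1.48, with another probe at −0.11), fell, while Tubb6, a tubulin found widely outside the nervous system, rose from between 7.32 and 7.74 to 10.36, 9.60 and 9.54 (2.31 ± 0.17, adjusted p = 3.43e-08). Of 44 guidance and adhesion genes 23 were called lower and 5 higher (median −0.25), or 31 and 2 under median scaling. Sema6b, a transmembrane semaphorin, fell from 9.43, 9.43, 9.22 and 9.43 to 7.24, 7.84 and 7.70 (−1.78 ± 0.13, adjusted p = 3.38e-08), with another probe at −0.34. The Slit receptor Robo1 (−1.37) and the secreted semaphorin Sema3a (−1.26) fell, and the netrin receptor Unc5b rose (0.79).

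Markers of neuron types were mostly lower. Of 18 glutamatergic markers 13 were called lower and 1 higher (2 without 15 h replicates 2 or 3), at a median of −0.32, or 15 and 0 under median scaling. Slc17a6, the vesicular glutamate transporter VGLUT2, read 10.41, 10.31, 10.27 and 10.08 in controls and 8.25, 8.26 and 8.33 at 15 h (−1.99 ± 0.14, adjusted p = 2.36e-08). The cortical transcription factors Mef2c (−1.84, and −0.48 on its other probe) and Tbr1 (−1.40) fell. Of 12 GABAergic markers 6 were called lower and 2 higher. Sst, somatostatin, fell from 11.25, 11.19, 11.43 and 11.34 to 8.15, 8.61 and 8.65, a 7.14-fold difference (−2.84 ± 0.13, adjusted p = 9.45e-10). The peptide genes Cck (−1.70) and Npy (−1.19) and the GABA-synthesising enzyme Gad1 (−0.70, and −0.29 on its other probe) fell. Pvalb, parvalbumin, a calcium buffer of fast-spiking interneurons, went the other way, from 6.16, 6.38, 6.26 and 6.88 to 8.86, 8.57 and 8.50 (2.22 ± 0.14, adjusted p = 1.02e-08). Its probe was dim in the controls, detected on 3 of the 4 arrays with deposited signals of 58.1 to 98.4 beside thresholds of 54.7 to 62.3.

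Other genes among the largest changes belong to none of these lists. Ooep, known as an oocyte protein, rose from between 6.09 and 6.35 to 9.71, 8.99 and 8.95 (2.99 ± 0.15), and was detected on 2 of the 4 control arrays. Aebp1, an extracellular matrix protein, rose by 2.60 ± 0.17. The chemokine-binding receptor Ackr1 (−2.19), the synaptic ligand Nxph2 (−2.33), Snurf, from the imprinted Snrpn locus (−2.26), and the glutamate transporter Slc1a1 (−2.14, and −0.80 on its other probe) fell. For each of these 6 genes the treated arrays did not overlap the controls, which the rule that named them required.

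The remaining motif searches gave these counts. TGACNNNGC, the antioxidant response element, also stood in 6 of 21 promoters of the integrated stress response list (28.6%), beside the 37.5% of NRF2 targets and 16.5% of all. It stood in 17.6% of the promoters of all genes called higher and 15.8% of those called lower. For TGATGNAA these 2 shares were 3.75% and 2.87%, and for GAANNTTC 7.46% and 6.39%. For GACGTG they were 12.3% and 10.2%, and for the CArG box 1.96% and 1.55%. TGATGNAA stood in 3 of 15 promoters of serine and folate genes (20%) and 1 of 24 of NRF2 targets (4.17%), against 3.02% of all. TCACNCCAC, the sterol response element, stood in 1 of 15 promoters of cholesterol genes (6.67%), against 1.6% of all. TGACGTCA, the cyclic AMP response element, stood in 1 of 24 promoters of synaptic vesicle genes (4.17%), 1 of 21 of the integrated stress response list (4.76%) and 2 of 18 of immediate early genes (11.1%), against 3.52% of all.

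Other lists gave these counts. The cytosolic ribosome list had 23 of 48 genes called higher and 1 lower (4 and 3 under median scaling), and that of the mitochondrial ribosome 17 and 9 of 63 (0 and 35). Of 35 proteasome genes 2 were called higher and 3 lower (0 and 24 under median scaling). The lower ones numbered 9 without 15 h replicate 2 or 3, and the higher ones 5 without 15 h replicate 3 and 1 without 15 h replicate 1 or control 3. Of 14 mitochondrial tRNA synthetases 3 were called higher and 4 lower, with 2 lower without 15 h replicate 1, control 1 or control 4, and 0 and 6 under median scaling. Of 5 metallothionein and zinc export genes 4 were called higher and 0 lower (1 lower without 15 h replicate 3 or control 4), or 2 and 1 under median scaling. Of 14 genes linked to Parkinson disease 2 were called higher and 6 lower, with 1 higher without control 3 or 15 h replicates 2 or 3. Under median scaling these counts were 1 and 10. Among them Uchl1, a neuronal ubiquitin hydrolase, fell by 1.60, and Dnajc6, which uncoats clathrin vesicles, fell by 1.96. Of 5 endothelial markers 1 was called higher (0 without 15 h replicates 1 or 2 or controls 1 or 2) and 0 lower, and the 1 measured blood cell marker was not called (called lower under median scaling).

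Markers of cells other than neurons were present and some were higher. Of 20 astrocyte markers 11 were called higher and 0 lower (median 0.58), and 4 and 1 under median scaling. Their summed signal on the quantile scale was 26290 to 31045 in controls and 52866 to 53580 at 15 h, and every marker was detected in each group. Gja1, the gap junction protein connexin 43, rose from between 11.68 and 12.15 to 13.74, 13.23 and 13.23 (1.5 ± 0.15), and Vim (1.27) and the glutamate transporter Slc1a3 (1.14) rose. These bright probes, at 12.9 or above on every 15 h array, weigh heavily in the astrocyte sum. Gfap, the classic astrocyte filament, was not called (0.07, adjusted p = 0.753). Of 11 microglia markers 5 were called higher and 0 lower, and the summed signal was 1450 to 1616 in controls and 2361 to 3251 at 15 h, led by Laptm5 (1.40), Lyz2 (0.97) and Cd68 (0.63), with 1 marker detected on no control array. Of 11 oligodendrocyte markers 0 were called higher and 2 lower (4, 1 and 0 without 15 h replicate 1, 15 h replicate 2 and control 4), with sums of 11938 to 13121 and 9791 to 14936. Under median scaling 0 were higher and 9 lower. The 8 mesenchymal markers gave 3 higher and 2 lower (median 0.06), with sums of 1916 to 2668 and 5282 to 5865, and 1 of them was detected on no control array. Acta2, also the lead gene of the actin list above, is one of them. The other 7 summed to 1322 to 1680 in controls and 1053 to 1270 at 15 h. The part of these cells in the changes above was not tested. Mki67, a proliferation marker, rose by 0.68. It was not called under median scaling (0.28), with no scaling (0.19) or in the authors' normalized values (0.33). Of 27 cell cycle genes 12 were called higher and 1 lower (0 without 15 h replicate 1, control 3 or control 4), or 5 and 4 under median scaling. Actb was not called (−0.20, adjusted p = 0.0749), and its other probes ranged from −0.33 to 1.32. It was called lower without 15 h replicate 2 (−0.26), 15 h replicate 3 (−0.26) or control 2 (−0.25), with no scaling (−0.28) and within matched chip 2 (−0.35), and stood at −0.08 without 15 h replicate 1. Matched chip 2 holds only replicate 1 of the 15 h arrays, and the lone array is assumed to vary like the other groups.

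**Figure D4:**
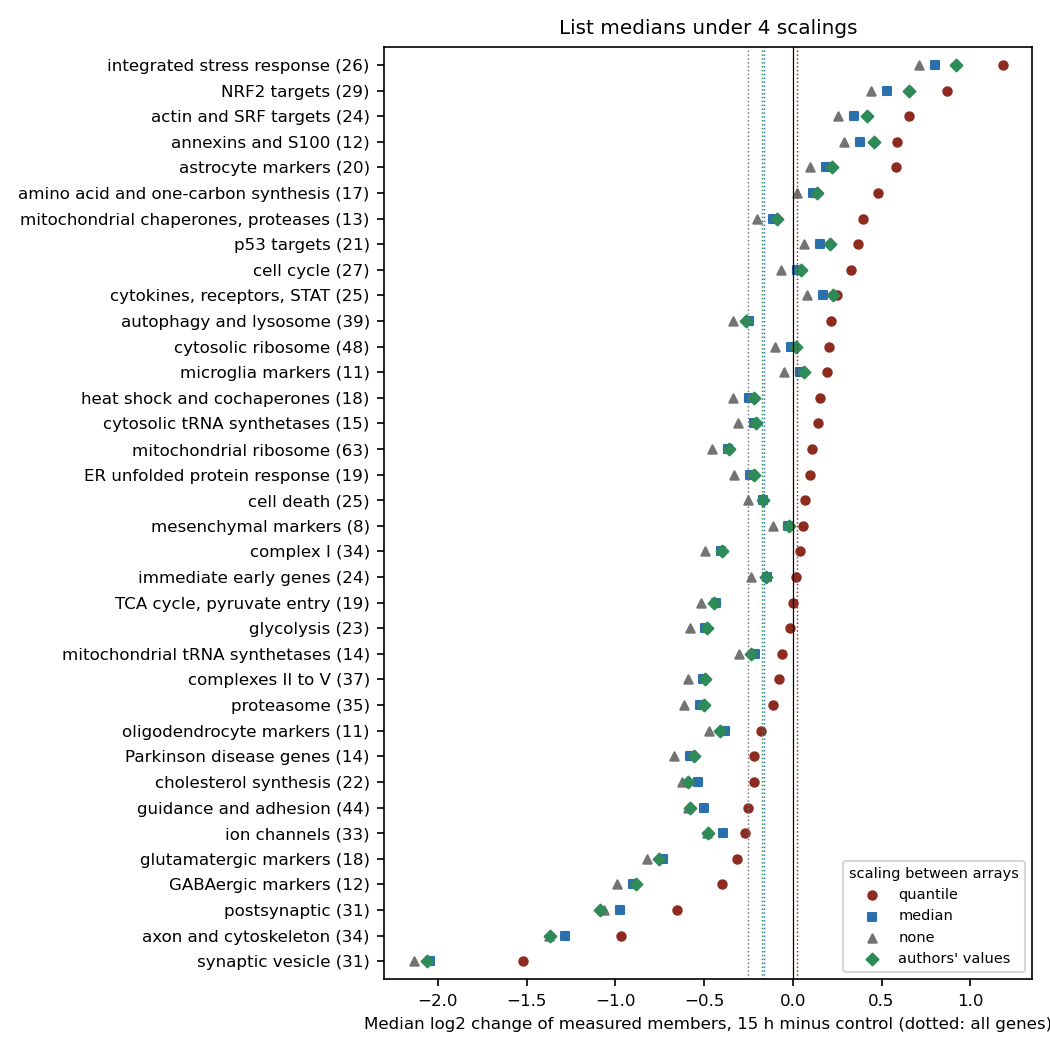
Median log2 change of the measured members of each list (15 h minus control, horizontal axis) under quantile scaling, median scaling, no scaling and in the authors' normalized values, with dotted lines at the median of all genes under each. Of the 39 lists 15 stay below 0 under all 4, among them the synaptic, axonal and neuron type lists, and 9 stay above 0, among them the NRF2, integrated stress response, actin and annexin lists. The other 15 change sign, among them the heat shock, mitochondrial chaperone, endoplasmic reticulum, autophagy and lysosome, cytosolic tRNA synthetase, complex I, cell cycle and both ribosome lists. The metallothionein, endothelial and blood lists, with 5 or fewer measured members, are counted here but not drawn.

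Some genes were at their highest or lowest at 15 h. Called above control, 8 h and 24 h alike were 403 genes (3.64%), and called below all 3 groups were 282 (2.55%). The numbers were 211 and 87 under median scaling and 160 and 47 with no scaling. Without 15 h replicate 1 they were 399 and 242. Pvalb lay between 6.23 and 6.41 at 8 h and between 7.47 and 7.52 at 24 h, below its 15 h arrays by 1.14 ± 0.15 at 24 h (adjusted p = 5.76e-05). At 8 h it was detected on 2 of the 3 arrays. Trpm1, a cation channel of melanocytes and retinal cells, was undetected on all control and 8 h arrays, read 8.17, 8.02 and 7.94 at 15 h, at least 3.52-fold above control, and read 6.60, 6.76 and 6.78 at 24 h. Its other probes moved by 0.08 and 0.16. The lipase Abhd2 (2.01), the arginine deiminase Padi2 (1.78) and the retinol dehydrogenase Rdh5 (1.78) completed the 5 largest. On the low side Sncb read 6.97, 7.78 and 7.80 at 15 h, and between 8.47 and 8.56 at 24 h. Its difference between these times was −0.99 ± 0.18 (adjusted p = 8.77e-04), and −0.71 without 15 h replicate 1. Tubb4a, Syn1, the acyl-CoA hydrolase Acot7 (−2.06 against control, with other probes at −2.05 and −2.04) and the vesicle cytochrome Cyb561 (−1.98) were also called lower than at 24 h. Acot7 differed from 24 h by −0.59, and by −0.37 without 15 h replicate 1. For the other 3 the call against 24 h was lost without that array, where Tubb4a differed by −0.22 (adjusted p = 0.111), Syn1 by −0.28 (adjusted p = 0.0971) and Cyb561 by −0.30 (adjusted p = 0.139).

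**Figure D5:**
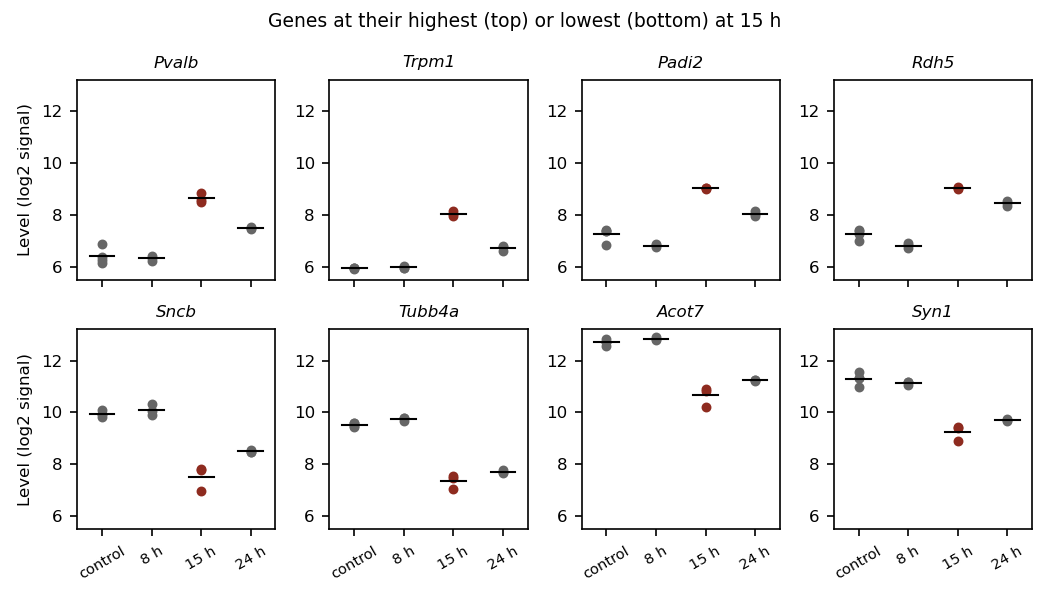
Log2 level (vertical axis) of 4 genes highest at 15 h (top) and 4 lowest at 15 h (bottom) on each array of the 4 groups, with bars at group means. The 15 h arrays of Pvalb lie between 8.50 and 8.86, above the 24 h arrays at 7.47 to 7.52, and those of Sncb lie between 6.97 and 7.80, below the 24 h arrays at 8.47 to 8.56.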

How the data were processed

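RNA from the 13 samples was hybridised as biotin-labelled cRNA to Illumina MouseRef-8 V1.1 bead arrays, per the labels' protocols and the file headers. The deposited intensity table holds bead signals per probe with no scaling between arrays. A deposited gene profile (BeadStudio 3.2.6, no normalization, per the file headers) gives a detection score per gene as a fraction. The authors' deposited normalized table holds a ratio. Recomputing it showed that each signal was divided by its array median and the result by the median control value.

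Probe signals were corrected with normexp (offset 50), quantile scaled over 13 arrays and taken to log2. Detection p-values were read through the profile array with identical signals (tolerance 0.05), which in every case belongs to the labelled group but to a different replicate number than the array named in the label. The chips that this gives are called matched chips. Of the 16 arrays in the profile, 3 belong to no sample here, and 102 profile columns stayed out. Of 24613 probes with a signal, 14366 were detected (p under 0.05) on at least 3 arrays, and 13875 of these had a symbol from RefSeq or the description. The brightest probe per gene gave 11061 genes. The other 491 probes were tested without a name and 227 were called.

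One limma fit (3.58.1, R 4.3.3, trend, 9 residual degrees of freedom) held all 4 groups, with Benjamini-Hochberg adjustment over all genes. The fit was tested on simulated data for all 11061 genes of the 15 h comparison. It recovered 57 of 67 simulated 1.5-fold changes, 66 of 67 at 2-fold and 66 of 66 at 4-fold, and called 9 genes simulated without change. The simulation changed few genes and drew independent noise, with no scaling step and no array standing apart. In the data 50.1% of genes were called, so these counts do not measure errors from scaling or from 15 h replicate 1. The number of arrays limits the precision.

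The 39 gene lists, the rule for named genes and the comparison were chosen with earlier results of these data known. The rule named the 10 largest rises and falls among called genes with no overlap, 3 called members per list with the smallest p and 1 in the other direction, the 5 largest each way among genes highest or lowest at 15 h, and a fixed set that includes Hmox1, Ddit3, Fos, Gfap, Gapdh and Actb. Other members were named after their values were seen. The text leaves out part of the genes so named, some of which are not reported here. Alternatives covered background correction, scaling, the detection filter, probes per gene, chips, a replicate block, array weights and leaving out arrays. Among them neqc, the single matched chips, the mesenchymal sum without Acta2 and the difference from 24 h without 15 h replicate 1 were chosen after seeing the data.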

Additional observations from a re-analysis of the deposited data

Results flagged for a closer look

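Of 148 named genes checked over the 4 controls, 17 had 1 control array far from the others, where chance gives about 1 in 20. All values are log2 levels.

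Control 4 stood apart for 8 of them. It was high for Fth1 (12.88, others 12.61 to 12.64), Cd63 (11.69, others 10.89 to 10.93), Cx3cl1 (9.52, others 9.23 to 9.25), Bok (10.46, others 10.19 to 10.23), Ier3 (7.16, others 6.96 to 6.99) and Gfap (8.09, others 7.21 to 7.29). It was low for Gdf15 (5.84, others 6.05 to 6.06) and Gad1 (10.56, others 11.24 to 11.3).

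Control 3 was low for Acta2 (9.21, others 9.86 to 9.97), Csf1 (6.78, others 7.03 to 7.04), Scn3b (8.67, others 9.25 to 9.26), Sema6b (9.22, others at 9.43) and Padi2 (6.82, others 7.38 to 7.4). It was high for Fosl2 (10.43, others 8.68 to 8.87), an AP-1 subunit. Control 1 was high for Idh2 (9.07, others 8.76 to 8.77) and Bbc3 (6.45, others 6.24 to 6.27), and control 2 was low for Trpm1 (5.92, others at 5.95), which was not detected in any control.

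The 15 h level differed in one direction from control, 8 h and 24 h alike, by limma's test of each difference, for 403 genes above and 282 below.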

How the results depend on the processing

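The 5543 genes called at 15 h against control became 3625 within the labels' chip 1, 2542 within the labels' chip 2, 3516 within matched chip 1, 6734 within matched chip 2 and 7149 with array weights (the labels' chip 2 and matched chip 2 hold 1 of the 3 15 h arrays each, assumed to vary like the other groups), and lay between 4969 and 5397 when 1 array was left out. With only the groups compared in the fit 4997 genes were called, 2496 higher and 2501 lower. Under median scaling 1410 of the calls were higher and 4563 lower, with no scaling 826 and 5170, and with the authors' normalized values 1402 and 4520, beside 2814 and 2729 with quantile scaling. The 2527 genes called and changed at least 1.5-fold became 3243 under median scaling, 3627 with no scaling, 3549 with the authors' values and 3688 with neqc. That count lay between 2276 and 2718 when 1 array was left out. The 685 genes at an extreme at 15 h became 298 under median scaling, 207 with no scaling, 363 with the authors' values and 1436 with array weights, and 587 to 725 without 1 array. The cause of these shifts was not tested.

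Of 148 named genes 142 were called. Of those calls 11 were lost within the labels' chip 2, 6 within matched chip 1, 5 with no scaling and 3 under median scaling or with the authors' values. Hspa5, Gfap, Bbc3 and Actb, not called in the fit reported, changed sign in some settings. Gfap was called higher with the replicate number as a block, a fit that left out control 4 (0.285, adjusted p = 0.0496), and with array weights (0.270, adjusted p = 0.0393). Actb was called lower in the settings given in the report and with the matched chip as a block (−0.213, adjusted p = 0.0475). Hspa5 lay at −0.0688, −0.158 and −0.0788 under median scaling, with no scaling and with the authors' values, at −0.0167 within the labels' chip 1 and at −0.0348 with array weights. Without 1 array it lay between −0.0235 (control 3) and 0.0425 (15 h replicate 2). Gfap lay at −0.227, −0.316 and −0.236 in the same 3 scalings, at −0.0503 within the labels' chip 2, at −0.0789 within matched chip 1 and between −0.0069 (control 2) and 0.285 (control 4) without 1 array. Bbc3 lay at −0.0105 within matched chip 2, and Actb at 0.188 with the mean of probes. With the replicate number as a block and without control 4, 5225 genes were called, and Gfap was the 1 named gene that changed its call. The Gfap change was the same, 0.285, with control 4 left out and no block (adjusted p = 0.0656). Deviations of same-numbered arrays correlated at between −0.08 and 0.10, and those of differently numbered arrays at between −0.19 and 0.19. So few arrays cannot show whether same-numbered samples share a culture or litter. Signals near background limit what can be measured for undetected genes.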

Other observations

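The 5 genes of fatty acid use given here were chosen after their values were seen. Pdk4, the kinase that shuts off pyruvate dehydrogenase, lay at 10.2, 9.61 and 9.71 on log2 at 15 h and between 7.41 and 7.98 in controls, a rise of 2.17 ± 0.17 (SE). Angptl4, a secreted inhibitor of lipoprotein lipase, rose by 1.91 ± 0.22, and its other probe by 1.19. Eci1, an isomerase of fatty acid oxidation, rose by 1.77 ± 0.17, and Acadvl, which oxidises very long chains, by 1.24 ± 0.15. Acadl, which oxidises long chains, rose by 1.71 ± 0.09, while its other probe gave 0.20. Against 24 h the 15 h level of Eci1 was 0.72 higher (adjusted p = 0.0102) and that of Acadvl 0.68 higher (adjusted p = 0.00672). Without 15 h replicate 1 these were 0.95 and 0.46, both still called. Pdk4 and Acadl differed by 0.06 and 0.01 from 24 h (adjusted p = 0.864 and 0.961).

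The 2 genes of melanin synthesis given here were also chosen after their values were seen. Dct, an enzyme of that pathway, lay at 8.34, 7.71 and 7.70 at 15 h and between 6.60 and 6.81 in controls, and its other probe rose by 0.64. Tyrp1, another such enzyme, lay at 8.02, 7.16 and 7.004 at 15 h, was not detected in controls and was at least 2.24-fold higher, with other probes at 0.47 and 0.35. At 15 h Dct was 0.99 and Tyrp1 1.04 above its level at 24 h. For both genes 15 h replicate 1 was the highest 15 h array, and without it the differences were 0.78 and 0.73.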
